A study of Mus musculus with 55 samples.

Results

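The Dnmt3a mutation was examined here on a Dnmt3L-ADD background. Single fully grown oocytes (FGOs) carrying substitutions in the ADD domains of both proteins (Dnmt3aADA/ADA + Dnmt3LD124A/D124A, the double mutant, n = 8) were set against FGOs carrying the Dnmt3L substitution with an intact Dnmt3a (Dnmt3a+/+Dnmt3LD124A/D124A, Dnmt3L-ADD, n = 8). The 16 libraries were chosen by genotype label from 42 FGO libraries and 55 samples in the series. The other FGOs were 18 wild-type oocytes and 8 oocytes with the Dnmt3a substitutions and a normal Dnmt3L (Dnmt3aADA/ADADnmt3L+/+, Dnmt3a-ADD). FGOs were taken from ovaries of adult mice aged 10 to 12 weeks by puncture, the surrounding cumulus cells were washed off with a capillary, and each library holds 1 oocyte. Both alleles were made with CRISPR/Cas9 in zygotes and backcrossed to C57BL/6J, and both groups compared here are homozygous for the Dnmt3L substitution throughout the animal. The labels give neither the number of mice nor which oocytes shared a mouse, so p-values measure the spread between single oocytes.

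DNMT3A and its catalytically inactive partner DNMT3L form a heterotetramer that lays down DNA methylation de novo in growing oocytes. The ADD domain in each of them binds the tail of histone H3 when lysine 4 is unmethylated, which ties methylation to chromatin without that mark. The methylation set in oocytes includes the maternal imprints, through which a small set of genes is expressed by parent of origin in the next generation. The FGO itself is close to transcriptional arrest and holds the mRNA that the egg and early embryo will use.

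The designed repair templates show which residues separate the groups. They are printed 5′ to 3′ on the coding strand, in lower case, with the bases that differ from the mm10 exon in capitals.
Dnmt3a template: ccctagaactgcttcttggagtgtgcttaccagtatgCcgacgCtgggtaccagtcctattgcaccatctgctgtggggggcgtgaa
Dnmt3a exon: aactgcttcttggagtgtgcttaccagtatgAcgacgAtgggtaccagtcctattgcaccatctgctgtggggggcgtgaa
Dnmt3L template: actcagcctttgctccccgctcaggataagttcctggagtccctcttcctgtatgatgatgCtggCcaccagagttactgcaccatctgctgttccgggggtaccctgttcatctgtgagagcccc
Dnmt3L exon: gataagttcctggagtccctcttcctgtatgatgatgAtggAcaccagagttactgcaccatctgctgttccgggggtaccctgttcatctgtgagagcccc

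The Dnmt3a template covers exon 14 of 23 in the protein-coding transcript of the mouse GENCODE annotation that matched it with the fewest mismatches (chr12:3899587-3899667, plus strand). Counted from 1 at the 5′ end of the template, with the reference base first, its changes were A38C and A44C. They turn codon GAC into GCC and GAT into GCT, which gives D525A and D527A, 2 aspartates replaced by alanine. The Dnmt3L template covers exon 7 of 14 (chr10:78051992-78052093, plus strand) with A62C, which gives D124A, and A66C, which leaves glycine 125 in place. The first of these alleles is what the double mutant carries and the Dnmt3L-ADD oocytes lack, and the second is in both. The Dnmt3a guide, printed with its PAM in capitals, lies over the changed codons.
Dnmt3a guide: gcttaccagtatgacgacgaTGG

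Total counts ran from 12090966 to 16328967 in double mutant and from 7832458 to 23739871 in Dnmt3L-ADD libraries, and 21171 to 22418 and 19424 to 24321 genes had a count. Oocyte identity was plain in both groups, with 29 of 30 oocyte markers above 10 CPM (counts scaled to library size with TMM factors) in the double mutant and none at 0 throughout a group. Dnmt3a was present at 285 to 351 CPM (median 299.7) in double mutant and 312 to 358 CPM (median 317) in Dnmt3L-ADD FGOs. Dnmt3l was present at 81.4 to 137 CPM (median 123) against 119 to 159 CPM (median 138). Both ranges overlapped, neither difference passed the test (log2 fold change -0.08, adjusted p = 0.331, and -0.25, adjusted p = 0.0938, edgeR quasi-likelihood test), and gene totals cannot show a substitution. All 8 double mutant libraries fall in the lower class of the study's mapped-read shares and all 8 Dnmt3L-ADD libraries in the higher, so genotype and this class cannot be told apart in the direct comparison. Wild-type libraries 1 to 8 are in the lower class and 9 to 18 in the higher, and 3 Dnmt3a-ADD libraries are in the lower and 5 in the higher. The direct difference is therefore given beside the same difference less that between the 2 wild-type sets, and the sets may also differ in ways other than their class.

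Of 15726 tested genes, 450 were higher and 183 were lower in double mutant than in Dnmt3L-ADD FGOs at an adjusted p under 0.05 and a fold change over 2 (2.86% and 1.16%, 4.03% together, edgeR). The 2 wild-type sets, which do not differ in genotype, differed by 701 genes, with 578 higher and 123 lower in libraries 1 to 8 (3.68% and 0.782%, 4.46% together). Among the 450 higher genes, 206 were also higher in wild-type libraries 1 to 8, which is 45.8% of the former and 35.6% of the latter list. Among the 183 lower genes, 21 were also lower there, 11.5% and 17.1% of the lists. The median log2 fold change of the higher genes was 1.37, of which 0.40 remained after the wild-type difference was subtracted, while the lower genes had a median of -1.55 and kept -1.25. These lists were chosen on the direct difference, so the medians describe the lists and test nothing. With the mapped-read class as a term in the fit, which only wild-type and Dnmt3a-ADD libraries can inform, 10 genes were higher and 48 lower, and 36 of the 59 genes named here by rule lost their direct call. Dnmt3a and Dnmt3l, which are among the 59, had no direct call to lose.

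**Figure D1:**
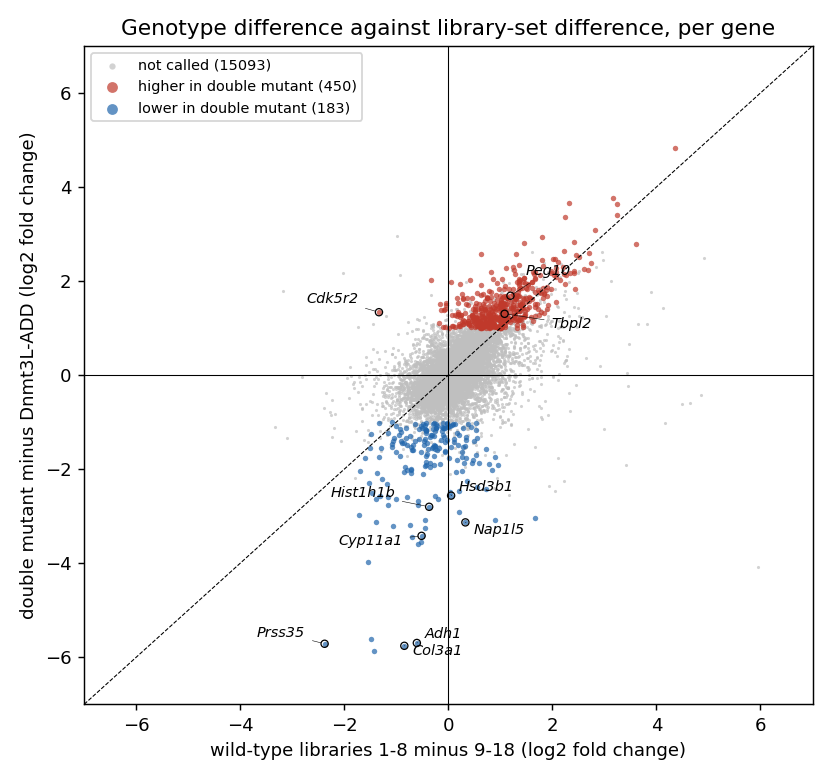
Each of 15726 tested genes by its log2 fold change between wild-type libraries 1 to 8 and 9 to 18 (horizontal axis) and between double mutant and Dnmt3L-ADD FGOs (vertical axis), with the 450 higher genes in red, the 183 lower genes in blue and equal differences on the dashed line. Red points lie mostly along the dashed line, while blue points such as Cyp11a1, Hsd3b1 and Nap1l5 lie well below 0 on the vertical axis and near 0 on the horizontal one.

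After subtraction, 14 genes were higher and 30 lower (0.089% and 0.191% of tested genes, 0.28% together, edgeR, on 4 sets of oocytes), and 2047 had an unadjusted p under 0.05. The genes that were called both directly and after subtraction numbered 20, of which 4 were higher and 16 lower. Of these 20, 8 kept both calls without Dnmt3L-ADD replicate 4 or 5, 10 without double mutant replicate 5, 12 without double mutant replicate 1, 4 or 8 and 13 without Dnmt3L-ADD replicate 3, 7 or 8. Both tests hold the same double mutant and Dnmt3L-ADD libraries, so the second is no independent repeat of the first. The count of 30 lower genes became 14 without wild-type replicate 7, Dnmt3L-ADD replicate 5 or double mutant replicate 5, 16 without Dnmt3L-ADD replicate 4 or double mutant replicate 8, 17 without Dnmt3L-ADD replicate 8, 18 without wild-type replicate 9, 19 without double mutant replicate 1 and 53 without wild-type replicate 11. The count of 14 higher genes became 7 without Dnmt3L-ADD replicate 5 and 9 without double mutant replicate 5 or wild-type replicate 3. Across all tested genes the direct log2 fold changes and those between the wild-type sets, which share no library, had a Pearson correlation of 0.551 and a Spearman correlation of 0.580, given as a description since genes share library depth and composition.

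Steroid hormone genes were among the clearest losses. Cyp11a1 encodes the mitochondrial side-chain cleavage enzyme that makes pregnenolone from cholesterol, and Hsd3b1 encodes the dehydrogenase that turns pregnenolone into progesterone. Cyp11a1 (chr9:58006411-58027023, mm10) ran from 0.408 to 1.60 CPM with a median of 0.622 in the double mutant and from 2.88 to 22.4 CPM with a median of 5.56 in Dnmt3L-ADD FGOs. The groups did not overlap, and the raw counts were 6 to 23 against 43 to 172. Its log2 fold change was -3.42 ± 0.56 (SE, adjusted p = 0.000122) directly and -2.90 ± 0.70 (adjusted p = 0.0357) after subtraction.

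Hsd3b1 (chr3:98852194-98859794) ran from 0.408 to 2.15 CPM (median 1.32) in the double mutant against 3.71 to 19 CPM (median 5.97). The ranges again did not overlap, and the log2 fold change was -2.56 ± 0.49 directly (adjusted p = 0.000532, edgeR) and -2.61 ± 0.63 after subtraction (adjusted p = 0.0357). Aldh1a1, a retinaldehyde dehydrogenase of the same list, ran from 0.204 to 0.625 CPM against 1.61 to 7.94 CPM, with log2 fold changes of -2.91 and -3.11. In all, 3 of 8 tested theca and steroidogenic genes were lower and none was higher (beside 1.16% lower and 2.86% higher over all tested genes), and this count was 3 with any of the 16 libraries left out and with every other setting tried. The remaining members included Star, which brings cholesterol into mitochondria, at log2 -0.17 (adjusted p = 0.793), and Fdx1, a mitochondrial electron carrier, which was higher without the fold limit at 0.70 (adjusted p = 0.000554). Cyp17a1, the hydroxylase of androgen synthesis, was at 0 in 6 libraries of each group, but differed by 4.86 between the wild-type sets, and Insl3, a defining theca marker, was at 0 in all 16 libraries.

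Each group was also set against the wild-type set of its own mapped-read class, and the difference between these is the subtracted value above. Against wild-type libraries 1 to 8 the double mutant had 10 higher and 139 lower genes of all tested (0.0636% and 0.884%, 0.947% together), and against libraries 9 to 18 Dnmt3L-ADD had 20 higher and 59 lower genes (0.127% and 0.375%, 0.502% together). The medians of Cyp11a1 were 7.85 CPM in wild-type libraries 1 to 8, 9.07 in libraries 9 to 18 and 2.82 in Dnmt3a-ADD FGOs. The double mutant differed from wild-type libraries 1 to 8 by -3.72 on the log2 scale (adjusted p = 9.19e-05, edgeR), and Dnmt3L-ADD from libraries 9 to 18 by -0.82 (adjusted p = 0.334). For Hsd3b1 these were -3.73 (adjusted p = 1.05e-05) and -1.12 (adjusted p = 0.118). Aldh1a1 fell in both, by 4.59 (adjusted p = 3.8e-06) and by 1.48 (adjusted p = 0.0479). The calls of Cyp11a1 and Hsd3b1 after subtraction were lost without Dnmt3L-ADD replicate 4 or 5, double mutant replicate 1 or 5 or wild-type replicate 7, and that of Cyp11a1 also without double mutant replicate 8 and that of Hsd3b1 without replicate 6, with adjusted p up to 0.0655. That of Aldh1a1 was lost without Dnmt3L-ADD replicate 4 or 5 (up to 0.0548).

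**Figure D2:**
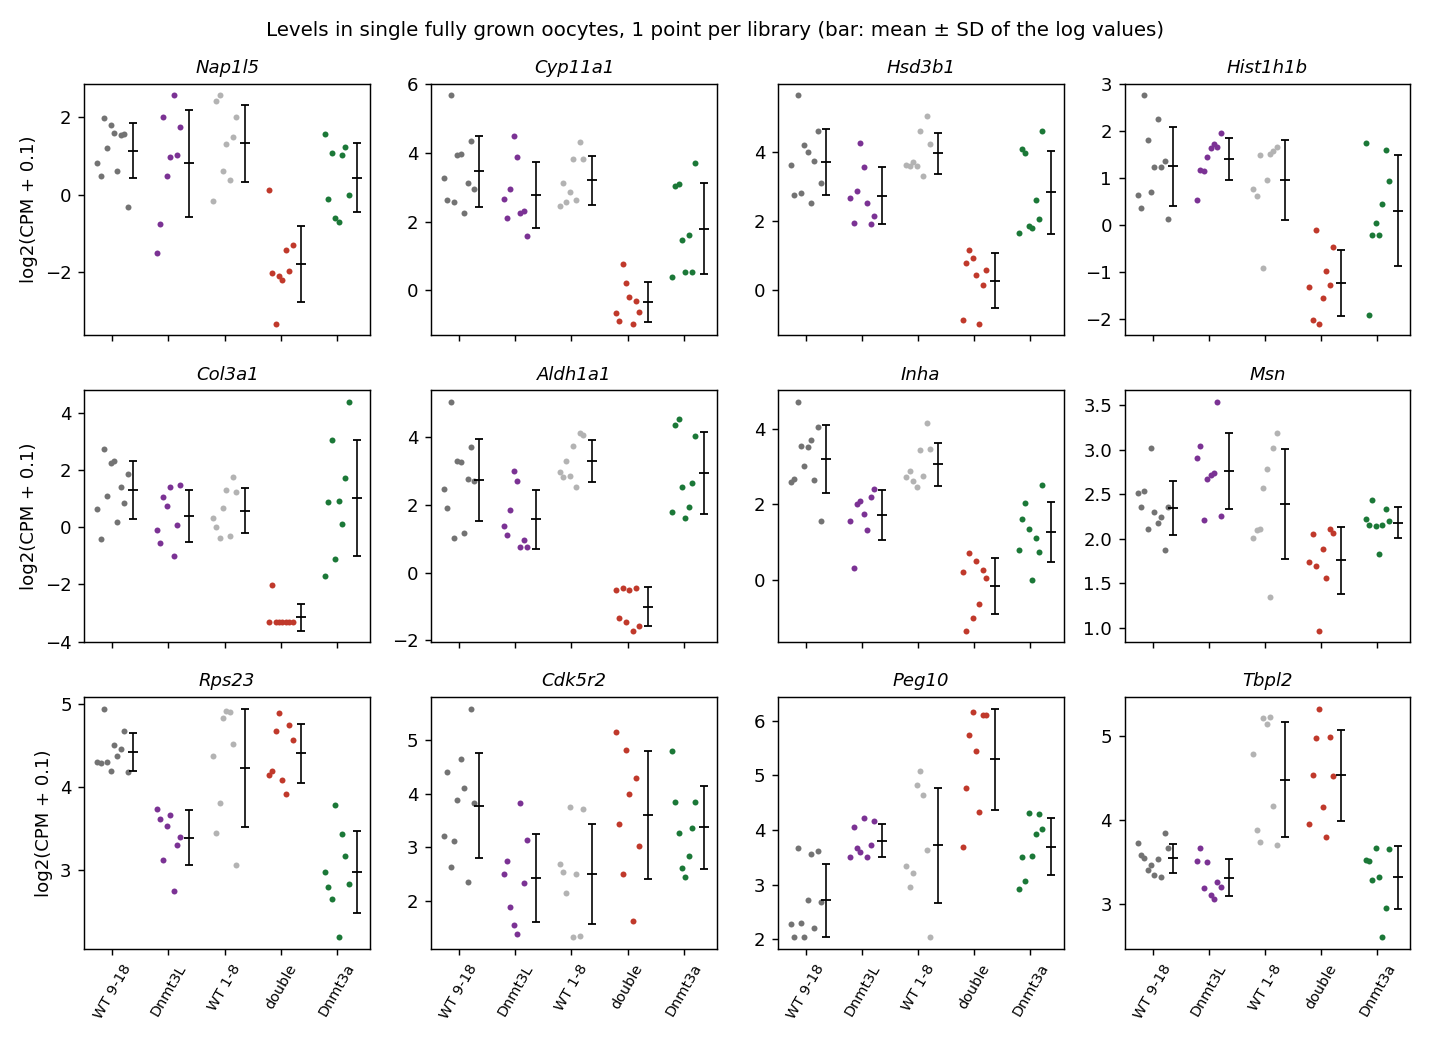
Levels of 12 genes as log2(CPM + 0.1) in single FGOs, 1 point per library, for wild-type libraries 9 to 18, Dnmt3L-ADD, wild-type libraries 1 to 8, double mutant and Dnmt3a-ADD, with the mean ± SD of the log values. Cyp11a1, Hsd3b1 and Hist1h1b in the double mutant lie below every Dnmt3L-ADD library, whereas Peg10 and Tbpl2 are also raised in wild-type libraries 1 to 8 over 9 to 18.

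Markers of other ovarian cells were also among the lower genes. In the granulosa and cumulus list 6 of 20 tested genes were lower and none was higher, against 1.16% of all tested genes lower. These were Inha and Inhbb, subunits of inhibins and activin, Fst, which binds activin, Hsd17b1, which reduces estrone to estradiol, Gja1, a gap junction protein, and Foxl2, a transcription factor of granulosa cells. Inha ran from 0.294 to 1.53 CPM (median 0.991) in the double mutant and from 1.15 to 5.22 CPM (median 3.58) in Dnmt3L-ADD FGOs. Its ranges overlapped in 1 Dnmt3L-ADD library, with a log2 fold change of -1.91 (adjusted p = 0.000949, edgeR). Hsd17b1 changed by -2.68 (adjusted p = 0.000299), Fst by -1.87 (adjusted p = 0.00341), Inhbb by -2.09 (adjusted p = 0.00531), Gja1 by -1.51 (adjusted p = 0.00892) and Foxl2 by -1.57 (adjusted p = 0.0442). None of the 6 passed after subtraction, where Fst came nearest (-2.17, adjusted p = 0.0554) and Inhbb was -0.72 (adjusted p = 0.679). With 1 library left out, 5 to 7 members were lower. In the same list 5 of 23 genes had a higher median in the double mutant, among them the KIT ligand gene Kitl, which passed without the fold limit (14 against 10.3 CPM, log2 0.48, adjusted p = 0.0415), and the nuclear receptor gene Nr5a2 (90.3 against 76.3 CPM, 0.26, adjusted p = 0.0862).

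In the list of stroma and smooth muscle 7 of 16 tested genes were lower and none was higher, beside 1.16% and 2.86% of all tested genes. They were the fibrillar collagens Col1a1, Col1a2 and Col3a1, the matrix protein Sparc, the intermediate filament vimentin (Vim), the growth factor receptor Pdgfra and smooth muscle actin (Acta2). Of all 18 genes in the list, 12 had a lower and 5 a higher median in the double mutant. The higher ones included Cnn1 (26.6 against 23.1 CPM) and Col4a2 (18.9 against 15.3 CPM). Col3a1 was at 0 in 7 double mutant libraries and at 0.147 CPM in the other, and ran from 0.401 to 2.68 CPM (median 1.26) in Dnmt3L-ADD FGOs. This was 2 counts in all against 144, a pooled ratio of 74.0-fold lower with a 95% counting interval of 20.1 to 617, and the groups did not overlap. Acta2 had 0 against 48 counts, at least 16.5-fold lower with the floor of 3 counts set over the group, and 1 Dnmt3L-ADD library was also at 0. Of the 7, Col3a1 passed after subtraction (adjusted p = 0.0427, but up to 0.0727 with 1 library left out, the call being lost without any of 18 of the 34), and Sparc, Col1a1 and Vim had log2 differences of -1.3, -1.52 and -1.71 between the wild-type sets. Dnmt3L-ADD replicate 4 held the highest Acta2, Adh1 and Vim of its group, at 2.08, 1.30 and 3.64 CPM, and without it 5 of the 16 genes were lower. The count of 7 became 2 when the 16 libraries were fitted alone, 2 with edgeR's exact test, 2 with a replicate block, 1 (Col3a1) with the mapped-read class as a term and 0 with a minimum count of 50. The endothelium and blood list had 1 of 6 tested genes lower (beside 1.16% of all tested genes), Kdr, a receptor of vascular growth factor, at -1.03 (adjusted p = 0.0106), and all 4 globin genes were at 0 in the 16 libraries. Kdr had -0.60 (adjusted p = 0.543) after subtraction, and its direct call, close to the fold limit, was lost without Dnmt3L-ADD replicate 7 or double mutant replicate 2, 4, 5 or 7.

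The summed levels of these lists differed between the groups to unequal degrees. The theca and steroidogenic list summed to 46.0 to 56.4 CPM in the double mutant and 51.2 to 96.3 CPM in Dnmt3L-ADD FGOs, and to 69.8 to 141 and 53.7 to 202 CPM in wild-type libraries 1 to 8 and 9 to 18. The granulosa and cumulus list summed to 320 to 341 CPM in the double mutant, within the 286 to 382 CPM of Dnmt3L-ADD FGOs, and 5 of its 23 genes were above 10 CPM in the double mutant. The endothelium and blood list summed to 80.6 to 118 against 122 to 145 CPM without overlap, and to 98.6 to 127 and 124 to 144 CPM in the wild-type sets. The stroma and smooth muscle list summed to 313 to 400 against 401 to 575 CPM, and the wild-type sets differed in the same direction, 320 to 434 in libraries 1 to 8 and 442 to 565 in 9 to 18. These sums rest mostly on members that were not called, so they do not give the level of the called genes. Medians in double mutant and Dnmt3L-ADD FGOs were 237 and 332 CPM for Myh11, 61.7 and 80.4 for Pecam1, and 23.6 and 28.4 for Tek. They were 172 and 187 CPM for Serpine2, 90.3 and 76.3 for Nr5a2, 29.3 and 32.4 for Scarb1, and 19.6 and 11.6 for Fdx1. RNA from attached ovarian cells and RNA made by the oocyte cannot be told apart in these libraries, and the part of attached cells in the lower levels was not tested. In a library of 1 oocyte, too, less RNA of a gene and more RNA of all others cannot be told apart.

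**Figure D3:**
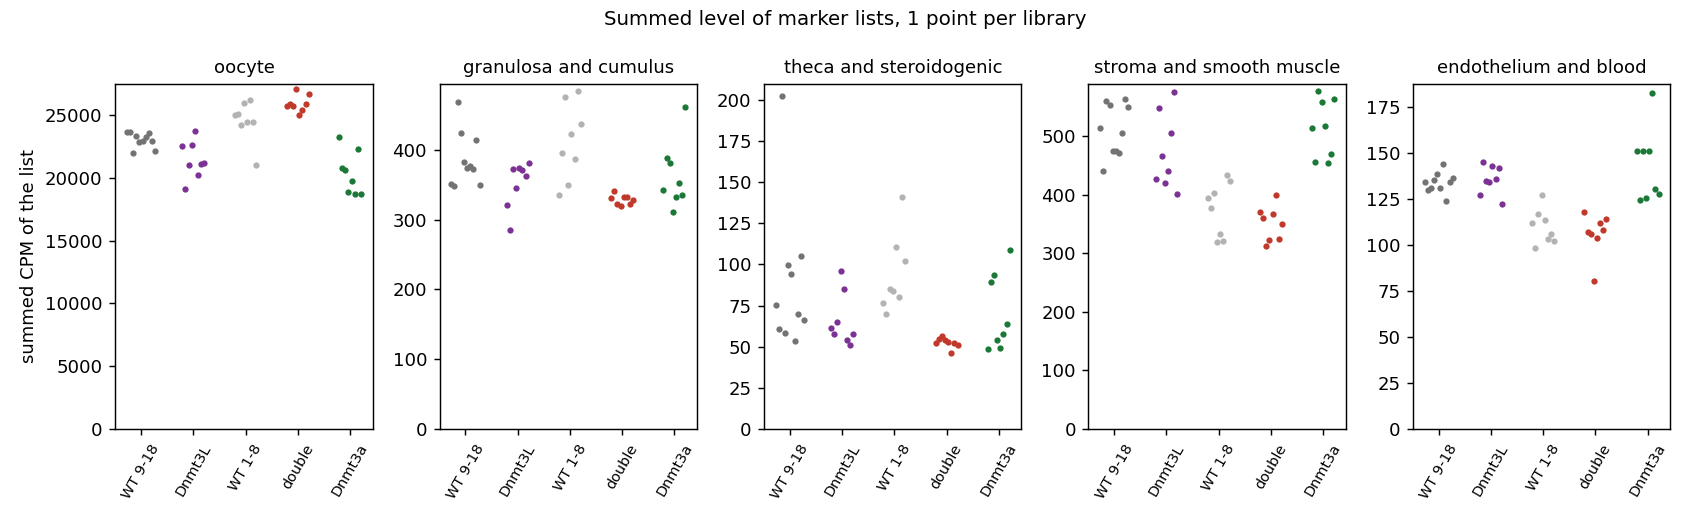
Summed CPM of 5 marker lists in single FGOs, 1 point per library, for the same 5 sets of oocytes, with each vertical axis starting at 0. The double mutant is narrow and low for theca and steroidogenic genes (46.0 to 56.4 CPM), and for stroma and smooth muscle genes it lies below Dnmt3L-ADD, as wild-type libraries 1 to 8 lie below 9 to 18. The sums rest mostly on a few members, such as Myh11 among stroma and smooth muscle genes.

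Among imprinted genes the clear change was in Nap1l5, a retrogene that encodes a nucleosome assembly protein-like protein and lies in an intron of Herc3 on the opposite strand (chr6:58905233-58907076, minus strand). It ran from 0 to 0.979 CPM with a median of 0.152 in the double mutant, with 1 library at 0, and from 0.253 to 5.75 CPM with a median of 1.88 in Dnmt3L-ADD FGOs. In 5 of 8 double mutant libraries it was below every Dnmt3L-ADD library, and the other 3 overlapped with the lowest Dnmt3L-ADD libraries. The log2 fold change was -3.13 ± 0.56 (adjusted p = 0.000299, edgeR) directly and -3.46 ± 0.71 (adjusted p = 0.0101) after subtraction. Both calls held with each of the 16 libraries left out, with adjusted p up to 0.00137 and 0.0216, and the second also without each wild-type library. The medians of the other oocytes were 2.53 CPM in wild-type libraries 1 to 8, 2.49 in 9 to 18 and 1.42 in Dnmt3a-ADD FGOs, all above the double mutant. Dnmt3L-ADD differed from wild-type libraries 9 to 18 by 0.02 on the log2 scale (adjusted p = 0.99) and the double mutant from libraries 1 to 8 by -3.44 (adjusted p = 0.000237). Since the strand setting of the counting is not given, whether reads of Herc3 (log2 0.28, adjusted p = 0.0191) were counted for it was not tested.

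The promoter of Nap1l5 is shown because the gene lies in a domain whose imprint is set by oocyte methylation at CG sites. The window covers 250 bases before to 50 after the RefSeq start, which lies upstream of the gene start in the deposited counts (GRCm38.p6, chr6:58907077-58907376, minus strand), and its 17 CG dinucleotides are in capitals.
Nap1l5 promoter: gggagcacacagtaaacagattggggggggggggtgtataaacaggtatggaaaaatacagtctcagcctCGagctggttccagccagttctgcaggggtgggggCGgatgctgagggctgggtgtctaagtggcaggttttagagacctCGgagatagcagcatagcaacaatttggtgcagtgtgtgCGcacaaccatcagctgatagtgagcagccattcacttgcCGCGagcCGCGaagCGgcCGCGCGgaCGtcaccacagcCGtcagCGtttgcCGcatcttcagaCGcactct

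Of 28 tested genes in maternally methylated domains, 1 was higher and 2 were lower (3.57% and 7.14%, beside 2.86% and 1.16% of all tested genes), with a median log2 fold change of 0.05 beside 0.01 over all tested genes. The higher gene was Peg10, a gene derived from a retrotransposon that the placenta needs. It ran from 12.9 to 71.5 CPM (median 48.5) in the double mutant and from 11.2 to 18.5 CPM (median 13) in Dnmt3L-ADD FGOs. The ranges overlapped, and the log2 fold change was 1.69 ± 0.39 (adjusted p = 0.00243, edgeR) directly but 0.49 (adjusted p = 0.706) after subtraction, with 1.19 between the wild-type sets. Its neighbour Sgce, which shares the promoter region, had 0.87 (adjusted p = 0.0413) directly and -0.13 after subtraction. Against wild-type libraries 1 to 8 the double mutant was higher for Peg10 by 1.48 (adjusted p = 0.00914), and Dnmt3L-ADD against libraries 9 to 18 by 0.98 (adjusted p = 0.0713).

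Peg13, a non-coding RNA inside Trappc9, ran from 0.136 to 1.54 CPM against 0.669 to 3.45 CPM and fell by 1.43 on the log2 scale (adjusted p = 0.038), a call that was lost without any of 8 libraries (Dnmt3L-ADD replicates 5, 7 and 8 and double mutant replicates 2, 4, 5, 6 and 7), and Trappc9 can share its reads. Without the fold limit, 5 of the 28 maternally methylated genes were higher and 2 lower, beside 12.8% and 11.4% of all tested genes. The higher ones included Gnas (0.74), Zdbf2 (0.79) and Herc3. Snrpn, Mest, Peg3, Igf2r, Grb10 and Cdkn1c had log2 fold changes between -0.13 and 0.24, and none of them passed. In the 4 tested genes of paternally methylated domains and the 5 tested genes of H3K27me3-dependent imprints there was no direct call. After subtraction 1 of the latter was called, Xist, the RNA that silences an X chromosome, at -10.04 (adjusted p = 0.000145). Its direct difference was -4.09 (adjusted p = 0.112), with means of 0.0861 against 1.62 CPM, and the wild-type sets differed by 5.95. It is named after its values were seen.

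**Figure D4:**
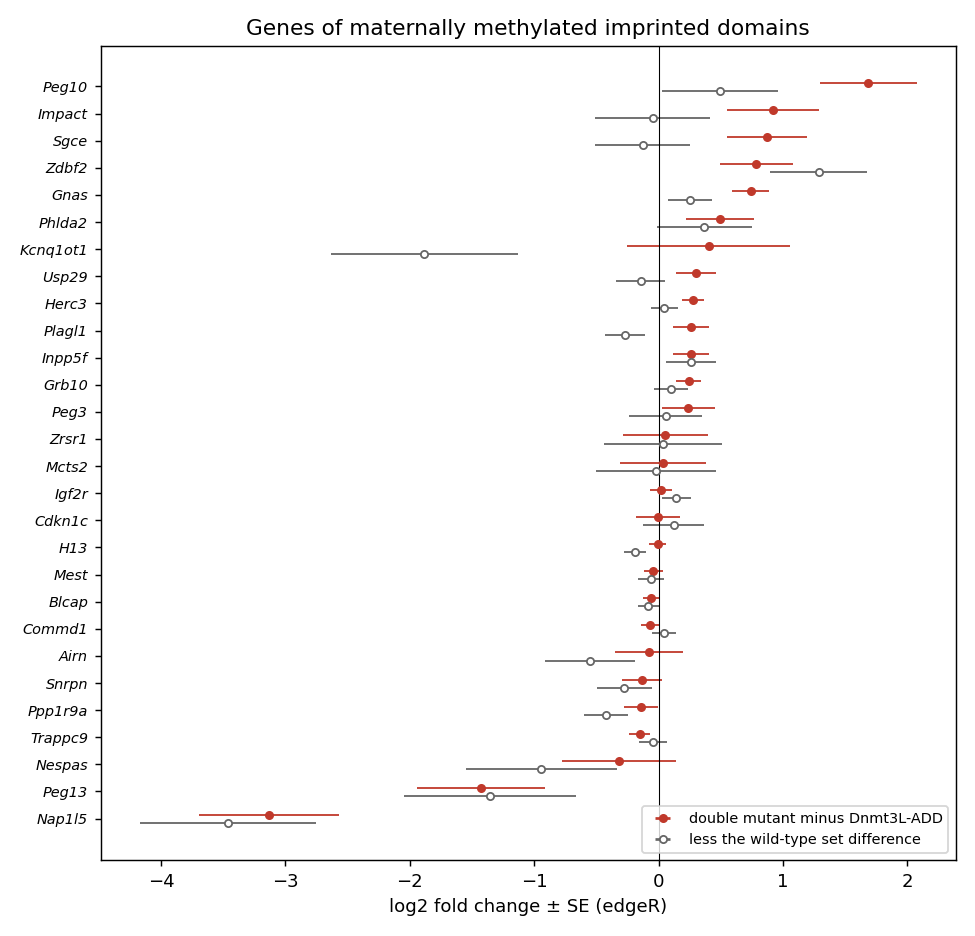
Log2 fold change ± SE for 28 tested genes of maternally methylated imprinted domains, double mutant minus Dnmt3L-ADD (red) and the same less the wild-type set difference (open). Nap1l5 lies at -3.13 and -3.46, and Peg10 at 1.69 and 0.49.

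The remaining genes lower in both tests had varied roles. Hist1h1b, a replication-dependent linker histone H1, ran from 0.133 to 0.834 CPM (median 0.307) against 1.35 to 3.75 CPM (median 2.80) without overlap, with log2 fold changes of -2.80 (adjusted p = 0.000113, edgeR) and -2.43 (adjusted p = 0.0315). Adh1, an alcohol dehydrogenase that can act on retinol, had 0 against 45 counts and was at least 15.4-fold lower. Msn, moesin, which links actin to the membrane, ran from 1.86 to 4.22 against 4.54 to 11.5 CPM without overlap (log2 -1.04, adjusted p = 0.000609). Itpkb, an inositol trisphosphate kinase, ran from 0.463 to 1.73 against 2.54 to 8.40 CPM (-1.87, adjusted p = 0.00362). Otof, otoferlin, a calcium sensor of vesicle fusion in hair cells, ran from 0 to 0.408 against 0.0819 to 3.75 CPM with overlap (-3.08, adjusted p = 0.00303). After subtraction, the calls of these 5 genes depended on single libraries. That of Hist1h1b was lost without Dnmt3L-ADD replicate 8 or double mutant replicate 5, of Adh1 without Dnmt3L-ADD replicate 4 or 5 or double mutant replicate 5, and of Msn without Dnmt3L-ADD replicate 7 or wild-type replicate 7 or 8. That of Otof was lost without Dnmt3L-ADD replicate 6 or wild-type replicate 7, and of Itpkb without Dnmt3L-ADD replicate 3 or 5, double mutant replicate 3 or 8 or wild-type replicate 7. The direct call of Msn, close to the fold limit, was lost without Dnmt3L-ADD replicate 7 or double mutant replicate 4. Speg, Smtn, Arhgef6 and Neat1 complete the lower genes with an assigned name and fall outside the rule for named genes, since their p-values were higher than those of the 10 lowest.

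Of the predicted genes, Gm42887 (chr5:69503842-69504960) had the plainest pattern over genotypes. It ran from 0.465 to 1.90 CPM (median 1.27) in the double mutant, from 8.44 to 13.2 CPM (median 11.3) in Dnmt3L-ADD and from 8.09 to 13.1 CPM (median 10.5) in Dnmt3a-ADD FGOs. Wild-type libraries 1 to 8 ran from 1.02 to 2.43 CPM (median 1.65) and libraries 9 to 18 from 0.919 to 8.24 CPM (median 1.84). Neither single mutant overlapped with the double mutant, and 1 or more wild-type libraries reached the range of Dnmt3a-ADD. The log2 fold change was -3.20 directly (adjusted p = 1.13e-07, edgeR) and -2.46 after subtraction (adjusted p = 0.00364), and both calls held with each library left out. The other lower predicted gene, Gm45836, changed by -1.74 (adjusted p = 0.0159) and -2.64 (adjusted p = 0.0475), and the second call was lost without most single libraries.

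Higher genes that kept their call after subtraction were 4. Gm25848, a predicted short gene within Fbxo45 on the same strand (chr16:32243712-32243855), ran from 4.56 to 8.58 CPM against 1.04 to 2.41 CPM without overlap, with 1.92 directly (adjusted p = 1.13e-07, edgeR) and 1.28 after subtraction (adjusted p = 0.00496). Reads of Fbxo45 could be counted for it. The double mutant lay near the wild-type level of Gm25848 (0.20 from libraries 1 to 8, adjusted p = 0.682, edgeR). Dnmt3L-ADD lay below it (-1.08 from libraries 9 to 18, adjusted p = 7.36e-05). Rps23, a protein of the small ribosomal subunit with processed copies in the genome that could share reads, ran from 15 to 29.5 CPM (median 20.9) against 6.62 to 13.2 CPM (median 10.9). The groups did not overlap, but wild-type medians were 21.7 and 20.2 CPM, so the double mutant lay at the wild-type level (0.07 from libraries 1 to 8, adjusted p = 0.934) and Dnmt3L-ADD below it (-1.03 from libraries 9 to 18, adjusted p = 0.00123). Its call after subtraction (1.10, adjusted p = 0.0475) was lost without most single libraries, and the direct call, close to the fold limit, without Dnmt3L-ADD replicate 3 or 6 or double mutant replicate 3, 4 or 7. Cdk5r2, a neuronal activator of the kinase CDK5, ran from 2.99 to 35.3 against 2.53 to 14 CPM with wide overlap. Its value after subtraction was 2.67 (adjusted p = 0.0288), with -1.33 between the wild-type sets, where it was lower in libraries 1 to 8, and that call was lost without double mutant replicate 1. For Cdk5r2 the double mutant differed from libraries 1 to 8 by 1.24 (adjusted p = 0.167, edgeR). Dnmt3L-ADD differed from libraries 9 to 18 by -1.43 (adjusted p = 0.0448). Its direct call (1.34, adjusted p = 0.0434) was lost without any of 10 libraries (Dnmt3L-ADD replicates 1 to 5 and 7 and double mutant replicates 1, 4, 5 and 7), with adjusted p up to 0.109.

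The annotated microRNA locus Mir6240 (chr5:114851948-114852064) was the last of the 4, from 0.463 to 1.68 CPM against 0.230 to 0.535 CPM, and all but 1 double mutant library lay above every Dnmt3L-ADD library. Its log2 fold change was 1.52 (adjusted p = 0.000633, edgeR) directly and 1.68 (adjusted p = 0.0354) after subtraction, where the call was lost without Dnmt3L-ADD replicate 4, 5 or 7, double mutant replicate 4 or 5 or wild-type replicate 7. The mature sequence from RefSeq is printed with its seed, bases 2 to 8, in capitals, and whether the counted reads came from the mature RNA was not tested.
mmu-miR-6240: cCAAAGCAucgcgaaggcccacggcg

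Most genes higher in the double mutant moved with the wild-type sets. Tbpl2, the oocyte-specific relative of the TATA-binding protein, ran from 13.7 to 40.2 CPM (median 23.0) against 8.23 to 12.6 CPM (median 9.30) without overlap, a log2 fold change of 1.30 (adjusted p = 0.00107, edgeR). Between the wild-type sets it differed by 1.08 (medians 22.7 and 11.5 CPM), and 0.22 remained after subtraction (adjusted p = 0.79). Zxdb, an X-linked zinc finger protein, changed by 2.29 (adjusted p = 0.00111) and by 1.23 between the wild-type sets, and double mutant replicate 4 had its highest value at 9.70 CPM. Among lower genes, Ldha, lactate dehydrogenase A, Lgals1, galectin-1, and Prss35, a serine protease-like protein of the ovary, changed by -3.11, -3.20 and -5.71 directly and by -1.4, -1.05 and -2.38 between the wild-type sets. Prss35 had 3 counts against 178, a pooled ratio of 61.0-fold lower (95% counting interval 20.5 to 299). Without double mutant replicate 4 the count of higher genes was 230 in place of 450.

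Most oocyte markers rose by less than the fold limit. None of 29 tested genes passed the fold limit, 18 were higher without it and none was lower, where 12.8% and 11.4% of all tested genes were higher and lower without the limit. The egg coat genes Zp1, Zp2 and Zp3 had log2 fold changes of 0.43 (adjusted p = 0.000602), 0.69 (adjusted p = 0.000197) and 0.44 (adjusted p = 0.000355), and the oocyte growth factors Bmp15 and Gdf9 of 0.52 (adjusted p = 8.08e-05) and 0.27 (adjusted p = 0.00185). Of all 30 markers, 25 had a higher and 5 a lower median in the double mutant. The lower ones included H1foo (1107 against 1274 CPM) and Btg4 (1240 against 1286 CPM). The summed level of the list was 25037 to 27080 CPM in the double mutant and 19131 to 23724 CPM in Dnmt3L-ADD FGOs, which did not overlap. Wild-type libraries 1 to 8 summed to 20990 to 26196 CPM and libraries 9 to 18 to 21967 to 23654 CPM, and the median of the list was 0.27 directly and 0.12 after subtraction.

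Lists of chromatin and methylation genes held 1 or 2 higher genes each and no lower gene, 4.55% to 11.8% of their tested members beside 2.86% of all tested genes. Without the fold limit, 1 DNA methylation gene was higher and 1 lower, and 3 and 5 H3K4 methylation genes. So were 4 and 4 H3K36 and H3K9 methylation genes and 3 and 2 Polycomb genes. The medians of these lists, in that order, were -0.08, -0.07, 0.10 and -0.04. In the DNA methylation machinery 1 of 19 tested genes was higher, Uhrf2, a reader of modified cytosine, at 1.18 (adjusted p = 0.0304), which became -0.20 after subtraction. Among H3K4 methylation genes 1 of 16 was higher, Kdm5a, an H3K4 demethylase (1.24, adjusted p = 0.0149). Among H3K36 and H3K9 methylation genes 2 of 17 were higher, Ehmt2, the H3K9 methyltransferase G9a (1.07, adjusted p = 0.024), and Kdm4c, an H3K9 demethylase (1.61, adjusted p = 0.0243). Of 22 Polycomb genes 1 was higher, Ring1, a ubiquitin ligase of the first Polycomb complex (2.04, adjusted p = 0.00817). After subtraction Kdm5a, Ehmt2, Kdm4c and Ring1 had 0.34, 0.31, 0.32 and 1.00, and none passed. The calls of Uhrf2, Ehmt2 and Kdm4c were each lost without double mutant replicate 4, that of Ehmt2 also without double mutant replicate 7, that of Kdm4c without Dnmt3L-ADD replicate 6, and that of Uhrf2 without double mutant replicate 7 or 8 or Dnmt3L-ADD replicate 3, 6 or 7.

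The calls among clustered histone genes, mostly replication-dependent, split by direction. Of 41 tested, 2 were higher, Hist1h4i (1.10, adjusted p = 0.00082) and Hist3h2ba (1.08, adjusted p = 0.00894), and 4 were lower, Hist1h1b, Hist1h2ab (-1.37, adjusted p = 0.00918), Hist1h2bb (-1.48, adjusted p = 0.0333) and Hist1h3d (-1.59, adjusted p = 0.0309), which is 4.88% and 9.76% beside 2.86% and 1.16% of all tested genes. After subtraction Hist1h2ab, Hist1h2bb and Hist1h3d had adjusted p = 0.214, 0.656 and 0.428. The direct call of Hist1h2bb was lost without Dnmt3L-ADD replicate 3, 5, 6 or 7 or double mutant replicate 1, 2, 4, 5 or 8, that of Hist1h3d without Dnmt3L-ADD replicate 5, 7 or 8 or double mutant replicate 2 or 3, and that of Hist3h2ba without double mutant replicate 4 or 7. The higher pair had 0.89 and 0.76 between the wild-type sets. Without the fold limit 11 clustered histone genes were higher and 4 lower, beside 12.8% and 11.4% of all tested genes. The median of this list was 0.30 directly, 0.25 between the wild-type sets and -0.06 after subtraction. Of 313 tested Zfp genes, most of which encode zinc finger transcription factors, 20 were higher (6.39%, beside 2.86% of all tested genes) and none was lower. Zfp712, Zfp768, Zfp64 and Zfp7 had 1.65, 1.67, 1.24 and 1.16 directly and 0.90, 0.93, 0.22 and 0.78 after subtraction, none of which passed, and the median of the whole list was 0.18 and then 0.02.

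**Figure D5:**
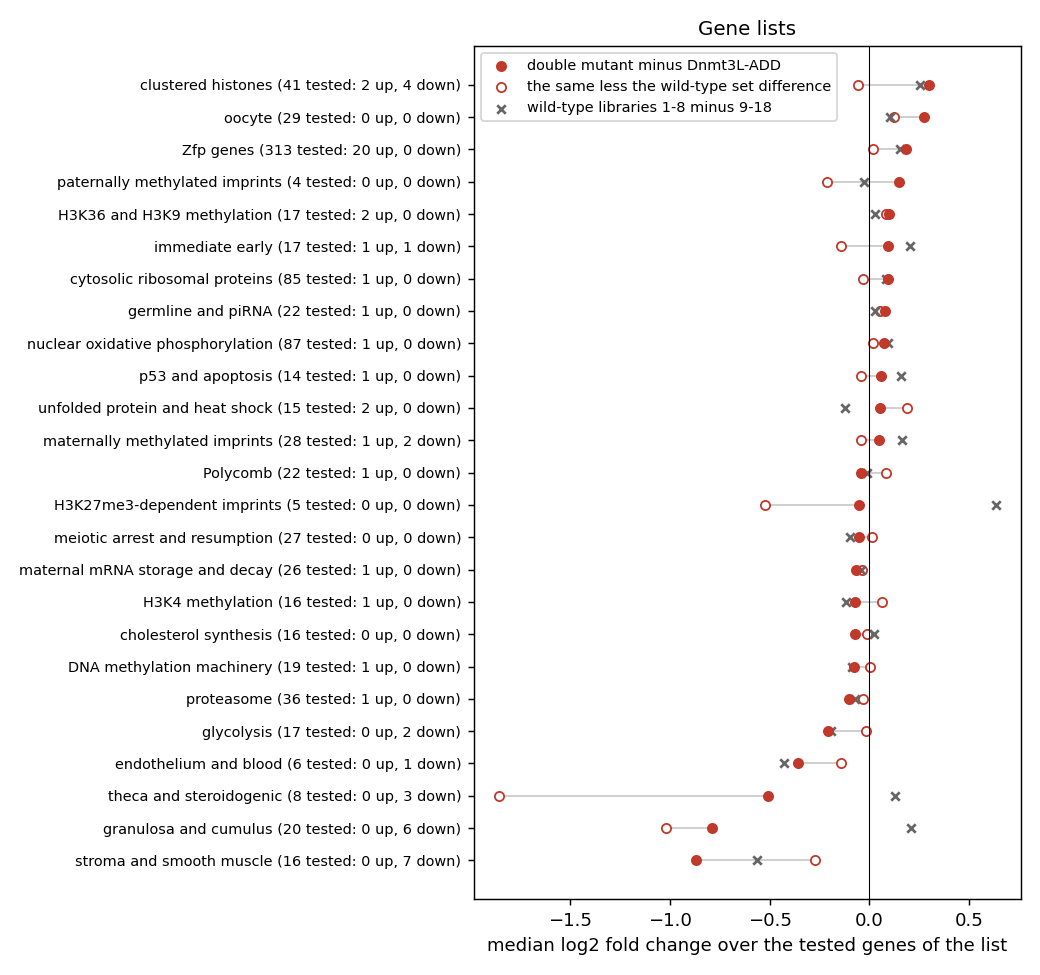
Median log2 fold change of 25 gene lists for double mutant minus Dnmt3L-ADD (filled), the same less the wild-type set difference (open) and the wild-type sets themselves (cross), with the number of tested genes and of calls per list. The theca and steroidogenic list has the lowest open point at -1.86 but a filled point at -0.51. Its 8 tested genes include Cyp17a1, at 0 in 6 libraries of each group, whose subtracted value rests mostly on the wild-type sets. The stroma and smooth muscle list has the lowest filled point at -0.87, the granulosa and cumulus list lies at -0.79 and -1.02, and most other lists lie near 0.

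The other pathways held 0 to 2 calls each in either direction, beside 2.86% higher and 1.16% lower of all tested genes. Higher were 4.55% of 22 germline and piRNA, 3.85% of 26 maternal mRNA and 7.14% of 14 p53 and apoptosis genes. So were 13.3% of 15 unfolded protein and heat shock, 2.78% of 36 proteasome and 1.15% of 87 nuclear oxidative phosphorylation genes. Of 17 immediate early genes 5.88% were called in each direction, and of 17 glycolysis genes 11.8% were lower. In the germline and piRNA list Piwil2, a Piwi protein that silences transposons, was higher (1.39, adjusted p = 0.0297, lost without Dnmt3L-ADD replicate 3, 6, 7 or 8 or double mutant replicate 3, 4 or 7), in the list of maternal mRNA storage and decay Ddx6, an RNA helicase of mRNA storage granules (1.29, adjusted p = 0.00521), and in p53 and apoptosis Mcl1, a survival protein (1.11, adjusted p = 0.00734). Xbp1 (1.68, adjusted p = 0.0126), a transcription factor of the unfolded protein response, and Hspa1a (1.11, adjusted p = 0.0443), an inducible heat shock protein, were higher in their list of 15. The immediate early genes split, with Ier2 higher (1.75, adjusted p = 0.00168) and Jun lower (-2.60, adjusted p = 0.022) of 17 tested. Psmd13, a proteasome subunit, was higher (1.24, adjusted p = 0.0156), as was Cox7c, a subunit of cytochrome c oxidase (1.03, adjusted p = 0.000113), 13.1 to 21.6 against 6.33 to 10.4 CPM without overlap. In glycolysis Ldha and the glucose transporter Slc2a3 (-1.58, adjusted p = 0.0295) were lower of 17 tested. The call of Hspa1a was lost without Dnmt3L-ADD replicate 1, 4, 5, 6, 7 or 8 or double mutant replicate 2, 5 or 8 (adjusted p up to 0.133), and that of Slc2a3 without Dnmt3L-ADD replicate 3 or 4 or double mutant replicate 7 or 8. That of Jun was lost without Dnmt3L-ADD replicate 7 or 8, and that of Cox7c, close to the fold limit, without Dnmt3L-ADD replicate 5 or double mutant replicate 7. None of these genes passed after subtraction, but 1 other unfolded protein and heat shock gene, not called directly, was called then. There was no call among 27 meiotic arrest and resumption or 16 cholesterol synthesis genes. The 37 mitochondrially encoded genes were at 0 in all FGO libraries and could not be compared.

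The called genes were mostly lowly expressed. The median mean level was 2.79 CPM for higher and 1.36 CPM for lower genes beside 12.8 CPM for all tested genes. Protein-coding genes made up 81.1% of higher and 78.3% of lower genes beside 86.0% of all, and pseudogenes 3.03% and 13.1% beside 4.61%. The X chromosome held 8.74% of lower and 3.78% of higher genes beside 3.51% of all. Groups did not overlap for 31 of the 450 higher genes (6.89%) and 26 of the 183 lower genes (14.2%), beside 3.42% of all tested genes. Within 10 Mb of the mutated Dnmt3a, 1 of 60 tested genes was called (1.67%, beside 4.03% overall), and near Dnmt3l, homozygous for the same allele in both groups, 8 of 218 (3.67%).

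The same mutation on a normal Dnmt3L background gave another set of calls. Dnmt3a-ADD FGOs differed from all wild-type FGOs by 46 higher and 276 lower genes (0.293% and 1.76%, 2.05% together, edgeR), from libraries that the direct comparison does not use. Of the 450 genes higher in double mutant than in Dnmt3L-ADD FGOs, 0 were higher and 87 lower in Dnmt3a-ADD FGOs, and of the 183 lower genes 14 were lower and 7 higher. Across all tested genes the 2 sets of log2 fold changes had a Pearson correlation of -0.406 and a Spearman correlation of -0.447, as a description. The difference between the 2 effects, tested as an interaction, was called for 1384 higher and 240 lower genes (8.8% and 1.53%, 10.3% together). Because the mapped-read class is tied to genotype on the Dnmt3L-ADD background and mixed on the other, the interaction carries that class as well.

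Inha and Inhbb were lower on both backgrounds, by -1.91 and -2.09 with Dnmt3L-ADD and by -1.89 (adjusted p = 9.68e-05, edgeR) and -2.11 (adjusted p = 0.0018) without it, with interactions of -0.03 (adjusted p = 0.966) and 0.02 (adjusted p = 0.99). Between the wild-type sets Inhbb differed by -1.37 and Inha by -0.27, and after subtraction the values on the Dnmt3L-ADD background were -0.72 (adjusted p = 0.679) and -1.64 (adjusted p = 0.0986). Cyp11a1 fell on both, by 3.42 and 1.34, with an interaction of -2.08 (adjusted p = 0.0149). Nap1l5 changed by -0.82 (adjusted p = 0.174) on the normal background, and its interaction was -2.31 (adjusted p = 0.00798). Lsm8, an RNA-binding protein that takes part in splicing, had an interaction of 2.79 (adjusted p = 5.49e-07), with 3.95 to 7.26 CPM against 0.606 to 3.21 CPM and no overlap in the direct comparison. Rny3, a small Y RNA, had -1.97 (adjusted p = 0.000308), with 0.452 to 2.52 against 2.20 to 9.90 CPM. Col3a1, Prss35 and Adh1 had interactions of -6.75 (adjusted p = 2.3e-05), -5.20 (adjusted p = 0.00155) and -4.61, from counts at or near 0 in the double mutant.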

How the data were processed

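Raw counts per gene were deposited for each single-oocyte library. The authors used STAR on mm10 and then counted per gene, with featureCounts in their methods and HTSeq in the submitters' processing notes. Annotation release and strand setting are not given in the sources used here. The 51734 genes of 42 FGO libraries were filtered with filterByExpr (minimum count 10) to 15726, scaled by TMM and fitted with the quasi-likelihood test of edgeR 4.0.16 (R 4.3.3) over all 4 genotypes, or with wild-type libraries 1 to 8 and 9 to 18 as separate groups. Calls needed a Benjamini-Hochberg adjusted p under 0.05 and a fold change over 2. DESeq2 1.42.0 was an alternative. The fits were also run on simulated counts that held no difference between mapped-read classes or wild-type sets. That run cannot show how well the subtraction removes such a difference.

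Named genes were Dnmt3a and Dnmt3l, the 10 of lowest p per direction called directly and after subtraction, 3 per direction also called between wild-type sets, 3 per direction by interaction, called list members (up to 4 per list and direction) and 2 predicted genes per direction. Further list members in the text were named after their values were seen. Members and lists were chosen with earlier results of these data known. No duplicates were found among the 56 pairs of libraries examined (lowest chi-square per degree of freedom 5.02), and other pairs of the FGO libraries were not examined. Counting intervals and floors (95%, 3 counts) cover counting error only.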

Additional observations from a re-analysis of the deposited data

Results flagged for a closer look

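Single libraries passed Dixon's criterion for 12 of the 116 gene and group pairs examined, and each was the highest of its group. The criterion's rate of about 1 in 20 holds for normally distributed values. CPM at low counts need not follow that, so the count is a description only. Dnmt3L-ADD replicate 4 had the highest Acta2 (2.08 CPM), Adh1 (1.30 CPM) and Vim (3.64 CPM) of its group. Dnmt3L-ADD replicate 3 was highest for Gm45836 (11.2 CPM) and Itpkb (8.40 CPM), replicate 1 for Ehmt2 (6.23 CPM), replicate 2 for Piwil2 (15.3 CPM), replicate 5 for Hist1h2ab (1.38 CPM) and replicate 6 for Otof (3.75 CPM). In the double mutant, replicate 1 was highest for Nap1l5 (0.979 CPM), replicate 2 for Col3a1 (0.147 CPM) and replicate 4 for Zxdb (9.70 CPM).

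The effect of the Dnmt3a mutation differed between the Dnmt3L backgrounds, by the interaction in edgeR, for 40 of the 59 named genes, beside 10.3% of all tested genes. The named genes had been chosen for their direct difference, and 6 of the rule's places were filled by the interaction itself. On the log2 scale, with the effect on the normal background subtracted, the interaction was negative for Col3a1 -6.75, Gm42887 -5.37, Prss35 -5.20, Adh1 -4.61, Otof -4.23, Acta2 -3.73, Aldh1a1 -2.98, Itpkb -2.32, Nap1l5 -2.31, Cyp11a1 -2.08, Hist1h1b -2.05, Rny3 -1.97, Slc2a3 -1.81, Hsd3b1 -1.79, Pdgfra -1.75 and Kdr -1.12. It was positive for Ier2 2.95, Gm25848 2.82, Zxdb 2.80, Lsm8 2.79, Piwil2 2.73, Zfp768 2.64, Zfp712 2.59, Rps23 2.39, Ring1 2.37, Xbp1 2.30, Psmd13 2.24, Tbpl2 2.08, Kdm5a 1.98, Ddx6 1.93, Mir6240 1.88, Zfp64 1.84, Uhrf2 1.81, Zfp7 1.81, Hist1h4i 1.81, Ehmt2 1.78, Cox7c 1.75, Mcl1 1.71, Hist3h2ba 1.64 and Peg10 1.41. Mapped-read class and genotype cannot be told apart on the Dnmt3L-ADD background, and the part of the class in these values was not tested.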

How the results depend on the processing

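Changing the normalization (RLE or upper quartile) or using robust estimation kept each count within 1.5 times its value. A minimum count of 50 left 250 higher and 50 lower genes in place of 450 and 183, 18 lower genes after subtraction, 254 between the wild-type sets, 151 between Dnmt3a-ADD and wild-type and 928 interactions. Keeping every gene with at least 1 count gave 1635 between the wild-type sets and 682 for Dnmt3a-ADD. Without a fold limit the counts were 2012 higher and 1788 lower, 65 and 79 after subtraction, 4354 between the wild-type sets, 2465 for Dnmt3a-ADD and 5601 interactions. DESeq2 called 22 higher and 75 lower genes after subtraction, and kept 19 of the 20 genes called in both tests, where RLE kept 20, upper quartile and robust estimation 17 each, the filter of at least 1 count 13 and the minimum count of 50 kept 10. Lower genes numbered 120 with edgeR's exact test and 107 when the 16 libraries were fitted alone.

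With the class of mapped reads as a term, 10 genes were higher and 48 lower, 533 interactions were called, and Dnmt3a and Dnmt3l turned to 0.059 and 0.095 on the log2 scale. Higher genes made up 71.1% of calls and 17.2% with that term, 83.3% with the minimum count of 50. With 1 library left out, higher genes ranged from 230 to 595, lower genes from 139 to 218, interactions from 1321 to 1774, and after subtraction higher genes from 7 to 17 and lower genes from 14 to 53, where leaving out wild-type libraries was an alternative chosen after seeing the data.

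Replicate numbers did not pair the libraries. The correlations of same-numbered libraries ran from -0.138 to 0.223, and 1 of 8 matched its own number best. With a replicate block, 339 genes were higher and 112 lower, and among named genes Cdk5r2, Ehmt2, Gm45836 and Hist3h2ba were not called.

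The median level of the lower genes was 1.36 CPM, and no detection limit was measured. The causes of these changes were not tested.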
